A study of Mus musculus with 48 samples.

Results

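The genes described here are 40 genes of G2 and mitosis, from the kinase that starts mitosis to the kinetochore, the spindle and the condensed chromosome. They were taken by symbol, and all 40 were found among the 55376 gene rows of a count table of nascent RNA, which is RNA made during a short labelling pulse. The cells were mouse embryonic stem cells of the line TCF2.2, and each of the 4 groups had 2 libraries. BRM014, at 10 µM for 3 h, blocks the ATPases BRG1 and BRM of the SWI/SNF remodeller, and its control was DMSO for 3 h. Lentivirus carried an shRNA to Chd4, whose protein is a remodelling ATPase in the NuRD complex, or a scrambled shRNA, both at 24 h under 1.5 µg/mL puromycin. All 8 libraries shared a pulse of 500 µM 4-thiouridine for 5 min and ERCC spike-in RNA added by cell number. The series text calls the 2 libraries of a group biological duplicates. The 40 chromatin immunoprecipitation samples of the series were not analysed here.

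Cells enter mitosis when CDK1, bound to cyclin B, is switched on by CDC25 phosphatases and freed from the inhibitory kinase WEE1. Aurora and Polo-like kinases then build the spindle, kinetochores tie chromosomes to its microtubules, and the spindle checkpoint holds back CDC20 until every chromosome is attached. Most of these genes are transcribed in a wave late in the cell cycle. In other cells this wave is known to be set by the MuvB complexes with B-MYB and FOXM1, by NF-Y at CCAAT boxes, and by a repressive promoter element, the CHR, of the form TTTGAA. Embryonic stem cells divide fast, with short gap phases.

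Promoter sequence is shown for 9 members, chosen for their roles or because they carry the largest differences below. It shows what elements the genes that differed in opposite directions had around their annotated starts. RefSeq promoters (GRCm38.p6) were matched by symbol for 32 of the 40 members. Each stretch runs from 100 bases before to 20 bases after the annotated start, 5′ to 3′ on the strand of the gene. Capitals mark TTTGAA and CCAAT on either strand (TTCAAA and ATTGG on the other). The first 4 members fell in the libraries labelled Chd4 shRNA, and the last 5 rose.
Cdk1: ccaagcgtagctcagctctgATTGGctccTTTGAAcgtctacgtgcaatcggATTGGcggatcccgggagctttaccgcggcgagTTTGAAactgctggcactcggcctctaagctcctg
Ccnb1: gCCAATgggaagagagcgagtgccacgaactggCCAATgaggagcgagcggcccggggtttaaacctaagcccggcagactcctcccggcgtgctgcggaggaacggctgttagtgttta
Ccnb2: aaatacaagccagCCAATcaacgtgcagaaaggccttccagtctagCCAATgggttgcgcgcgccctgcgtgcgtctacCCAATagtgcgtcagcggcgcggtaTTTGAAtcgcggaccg
Cdc20: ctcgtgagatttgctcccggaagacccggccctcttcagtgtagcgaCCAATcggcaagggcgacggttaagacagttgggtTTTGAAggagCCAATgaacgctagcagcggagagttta
Cenpe: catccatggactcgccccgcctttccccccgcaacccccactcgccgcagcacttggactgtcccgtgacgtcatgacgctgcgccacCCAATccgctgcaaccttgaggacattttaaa
Cenpf: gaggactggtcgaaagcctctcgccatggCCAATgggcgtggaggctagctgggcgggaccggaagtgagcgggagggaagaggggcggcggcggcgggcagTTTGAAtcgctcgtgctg
Kif20b: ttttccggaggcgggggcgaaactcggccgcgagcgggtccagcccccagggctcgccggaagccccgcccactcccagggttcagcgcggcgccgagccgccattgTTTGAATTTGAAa
Kif11: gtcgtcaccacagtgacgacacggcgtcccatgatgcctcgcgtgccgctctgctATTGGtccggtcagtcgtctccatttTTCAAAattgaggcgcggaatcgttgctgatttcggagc
Top2a: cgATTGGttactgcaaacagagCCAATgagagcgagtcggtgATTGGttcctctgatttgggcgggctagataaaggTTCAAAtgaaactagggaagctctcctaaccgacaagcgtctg
These stretches lie at chr10:69352893-69353012 (minus strand), chr13:100786467-100786586 (minus strand), chr9:70421535-70421654 (minus strand) and chr4:118437324-118437443 (minus strand). The others lie at chr3:135212463-135212582 (plus strand), chr1:189688067-189688186 (minus strand), chr19:34922258-34922377 (plus strand), chr19:37376282-37376401 (plus strand) and chr11:99024170-99024289 (minus strand).

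The promoters searched were 300 bases long and ran past the annotated start. TTTGAA was present on either strand in those of 24 of the 32 matched members (75%). It was in 17.9% of all 32851 promoters of the table and 14.3% of the 4529 expressed genes that could be matched, of 8272. Members and expressed genes were counted once each, as holding a string if any of their promoters did. CCAAT was present in 26 of 32 (81.2%), against 37.4% of all promoters and 45.4% of the matched expressed genes. The related forms TTCGAA and TTTAAA were present in 4 and 10 members, 12.5% and 31.2%, against 1.56% and 13.2% of all promoters and 2.52% and 10.5% of the matched expressed genes. GCGGGAA, a form of the E2F site, was present in 2 members, 6.25%, against 4.6% of all promoters and 10.7% of the matched expressed genes. All strings were searched on both strands, and none contains another, though matches can overlap at their ends. TTTGAA and CCAAT were thus common in the list as a whole, and they stood on both sides of the split described below. TTTGAA was in 12 of 13 matched members higher in the libraries labelled Chd4 shRNA, in 4 of 6 of those lower and in 7 of 9 of those not called. CCAAT was in 12 of 13, 5 of 6 and 7 of 9 of them.

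The libraries held 12977098 and 14582377 gene counts with BRM014 and 17128981 and 16813866 with DMSO. They held 7461362 and 6982354 in the libraries labelled Chd4 shRNA and 12026026 and 11298835 in the scrambled libraries, and members took between 14057 and 36701 counts of a library. Genes for olfactory and vomeronasal receptors, silent in stem cells, had per kb of exon 6.78 and 7.21 counts in libraries labelled Chd4 shRNA, against 1.32 to 2.66 in the other 6. At that rate background would give between 3.67% and 34.1% of the counts of a tested member in the libraries labelled Chd4 shRNA, against 0.273% to 7.97% in the others. Genes whose mean count was at least 10-fold above background were tested (8272 genes, 36 members), with TMM scaling among them, by edgeR's quasi-likelihood test at a Benjamini-Hochberg adjusted p under 0.05 over all 8272. In libraries labelled Chd4 shRNA the nascent counts of Chd4 itself were 730 and 760, against 806 and 618 in the scrambled libraries, a log2 fold change of 0.57 ± 0.16 (SE, adjusted p = 0.00532). An shRNA acts on finished RNA, which was not measured, so knockdown could not be checked and the libraries are named by their labels. Of 14 stem cell marker genes, 13 were tested, and 0 rose and 9 fell in the libraries labelled Chd4 shRNA, with summed scaled counts (counts per 1000000 of the scaled library size) of 1995 and 1930, against 3090 and 3252 in the scrambled libraries. Summed markers of primitive endoderm, mesoderm and fibroblasts, with 0 of 17 tested, were 46.5 to 46.9, 20.7 to 23.0 and 71.7 to 78.0 in those libraries, against 8.55 to 9.70, 2.74 to 4.79 and 9.12 to 12.2 in the scrambled libraries. Markers of trophectoderm and of neural cells, with 2 of 6 and 1 of 5 tested, summed to 38.5 to 41.9 and 40.8 to 46.9, against 15.2 to 17.8 and 31.0 to 36.1. The receptor counts per kb were not scaled for library size, while these marker sums were. The 17 markers all missed the cutoff of 10-fold above background. Whether other cell types or background have a part in the results below was not tested.

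A scaled count divided by the kb of exon is called a level below. Levels averaged over the 8 libraries were highest for Ccnb2 (43.9 per kb), Cdc20 (32.8), Birc5 (29.3), Cenpa (25.4) and Ccnb1 (23.2). They were lowest for Nuf2 (2.27), Cenpc1 (2.56), Ndc80 (2.76) and Cdc25b (3.03), the 4 members that missed the cutoff for testing. The cyclin B genes and Cdc20 were among the 5 highest, with Birc5 and Cenpa, and 3 of the 4 lowest were kinetochore genes. In DMSO the level of Ccnb2 was 51.7 ± 2.36 and that of Nuf2 was 2.05 ± 0.485 (SD, n = 2 each).

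In the libraries labelled Chd4 shRNA the list split in both directions. Relative to the median expressed gene, 15 of the 36 tested members rose (41.7%) and 8 fell (22.2%), against 19.4% and 20.5% of all tested genes, 39.9% in all. The share that fell was thus near that of all tested genes, and only the share that rose was well above it. The median log2 fold change of the members was 0.27, against -0.0062 for all tested genes. Scaled counts of the groups did not overlap for 18 members that were higher and 11 that were lower, 80.6% of the members against 72.9% of all tested genes. Few members passed the test with BRM014: 0 rose and 1 fell (2.78%), against 3.12% and 4.63% of all tested genes, 7.75% in all. At an unadjusted p under 0.05 edgeR had 5 members higher and 4 lower with BRM014, and DESeq2 called 0 and 0 after adjustment. The unadjusted counts have no share of all tested genes beside them here.

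**Figure D1:**
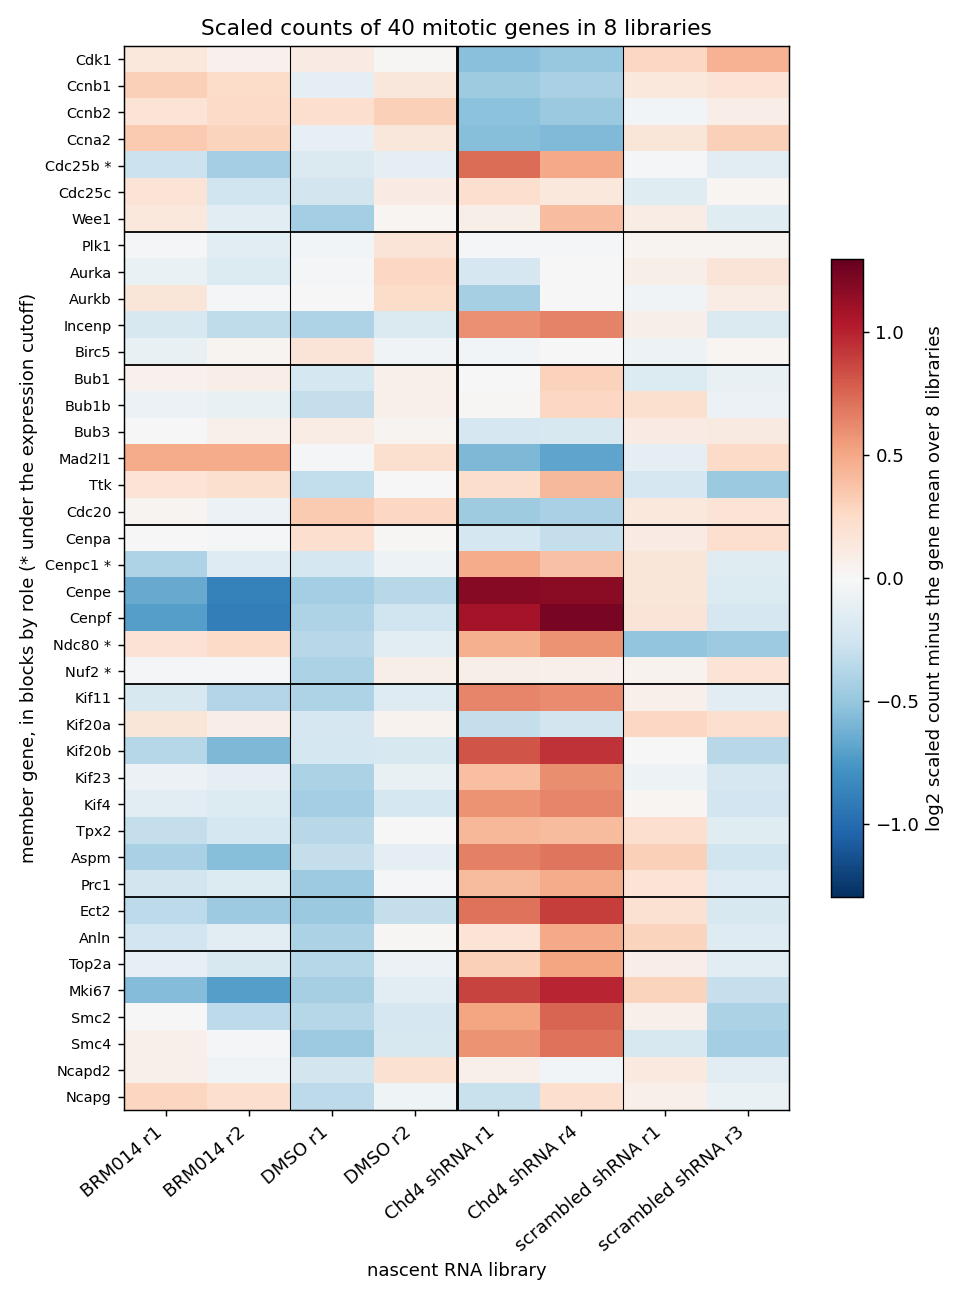
Log2 scaled counts of the 40 members (rows, in blocks by role) in the 8 libraries (columns), each minus the gene's mean over the libraries, in red where higher and blue where lower. In the libraries labelled Chd4 shRNA the cyclins, Cdk1, Mad2l1 and Cdc20 were low and Cenpe, Cenpf, Kif20b and Mki67 were high, relative to expressed genes. Asterisks mark the 4 members that were not tested.

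These directions are changes against the typical expressed gene, because the scale itself moved the whole list. For the Chd4 comparison, sizes from TMM of the 92 ERCC RNAs shifted the median expressed gene by 0.19 and left 0 members called in either direction, with 5 higher and 0 lower at an unadjusted p under 0.05. Plain ERCC sums shifted it by 0.59, with 20 members higher and 0 lower, and 5 of the 8 members that fell then had a positive value. TMM over all genes past the default filter, background genes included, shifted it by -1.34, with 0 members higher and 36 lower. A new scale shifts all genes nearly alike, so subtracting the shift returns nearly the main values and is no separate support. Taken that way, the 15 members that rose lay between 0.44 and 1.22 above the median expressed gene. The 8 that fell lay between 0.41 and 0.88 below it. With background subtracted, which changes the counts themselves, the 15 lay from 0.471 to 1.29 and the 8 from -0.757 to -0.265 relative to that gene. Because the scale moved the whole list, no value per cell is given.

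CDK1 and its cyclins were 4 of the 8 members that fell. Of the 6 tested genes of this engine, 0 rose and 4 fell in the libraries labelled Chd4 shRNA. Among all tested genes 19.4% rose and 20.5% fell. On plain ERCC sums the values of Ccnb1 and Ccnb2 turned positive and those of Cdk1 and Ccna2 did not. Cdk1 (chr10:69335146-69352938), the kinase that drives entry into mitosis, had scaled counts of 70.4 and 73.1 in the libraries labelled Chd4 shRNA, against 124 and 141 in the scrambled libraries. Its log2 fold change was -0.88 ± 0.14 (SE), or 0.542-fold, with an adjusted p of 2.56e-05. The groups were well apart. Values in parentheses after a gene are, here and below, log2 fold changes ± SE with the adjusted p. Ccna2 (chr3:36564865-36572150), cyclin A2 of S phase and early mitosis, had 58.9 and 58 in the libraries labelled Chd4 shRNA, against 96.3 and 108 in the scrambled libraries (-0.80 ± 0.14, adjusted p = 0.000101). Ccnb1 (chr13:100778650-100786570), the main cyclin B, had 69.9 and 71.8 in the libraries labelled Chd4 shRNA, against 106 and 109 in the scrambled libraries (-0.60 ± 0.14, adjusted p = 0.00147). Ccnb2 (chr9:70407692-70421547), a second cyclin B, had 45.6 and 47 in the libraries labelled Chd4 shRNA, against 64 and 69.9 in the scrambled libraries (-0.53 ± 0.14, adjusted p = 0.00336). The replicates of all 4 genes were close in the libraries labelled Chd4 shRNA, and no scrambled library reached down to them. For Ccnb2 the call was lost without the library labelled Chd4 shRNA r1 (-0.49, adjusted p = 0.0514) and with background subtracted (-0.35, adjusted p = 0.0526). The regulators of CDK1 did not pass the test: the phosphatase gene Cdc25c had 0.24 (adjusted p = 0.29) and the inhibitory kinase gene Wee1 had 0.28 (adjusted p = 0.239). Summed over the 7 genes of the engine, scaled counts were 299.6 ± 3.92 in the libraries labelled Chd4 shRNA and 449 ± 25.2 in the scrambled libraries (SD, n = 2 each).

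The Polo-like and Aurora kinases did not pass the test. Plk1, the Polo-like kinase, had scaled counts of 31.2 and 30.8 in the libraries labelled Chd4 shRNA, against 32.4 and 32.2 in the scrambled libraries (-0.06 ± 0.14, adjusted p = 0.779). Aurka, the Aurora kinase of the spindle poles, had 30.6 and 35.7 in the libraries labelled Chd4 shRNA, against 37.5 and 39.8 in the scrambled libraries (-0.22 ± 0.15, adjusted p = 0.241). Aurkb, the Aurora kinase of the chromosomal passenger complex, had 20.0 and 26.9 in the libraries labelled Chd4 shRNA, against 26 and 28.8 in the scrambled libraries (-0.22 ± 0.16, adjusted p = 0.28). For Plk1 and Aurka both treated values were below both scrambled values by a small margin, and for Aurkb the groups overlapped. Birc5, the survivin subunit of the same complex, had 0.01 (adjusted p = 0.961). Incenp (chr19:9872296-9899551), the scaffold that activates Aurora B, was the exception in this group of 5: it rose on the scale of expressed genes, and was negative (-0.66) where all filtered genes set the scale. It had 52.3 and 54.1 in the libraries labelled Chd4 shRNA, against 36.4 and 30.4 in the scrambled libraries (0.67 ± 0.14, adjusted p = 0.000559).

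Of the 6 genes of the spindle checkpoint and its target 1 was higher and 2 were lower, a share near the 19.4% and 20.5% of all tested genes. Mad2l1 (chr6:66535390-66547220), which as MAD2 binds and blocks CDC20, had scaled counts of 50.1 and 46.6 in the libraries labelled Chd4 shRNA, against 68.8 and 89.3 in the scrambled libraries (-0.71 ± 0.15, adjusted p = 0.00066). Cdc20 (chr4:118432901-118437352), the activator of the anaphase-promoting complex that the checkpoint restrains, had 43.8 and 44.9 in the libraries labelled Chd4 shRNA, against 66.3 and 68.3 in the scrambled libraries (-0.60 ± 0.14, adjusted p = 0.0011), a value that was 0.013 on plain ERCC sums. Ttk (chr9:83834689-83872389), the MPS1 kinase at the head of the checkpoint, had 25.4 and 29 in the libraries labelled Chd4 shRNA, against 18.7 and 15.5 in the scrambled libraries (0.67 ± 0.16, adjusted p = 0.00153), and -0.67 where all filtered genes set the scale. Because that share was near the one of all tested genes, no pattern along the checkpoint is read from these calls. The 3 BUB genes did not pass the test: Bub3 had -0.32 (adjusted p = 0.0556), Bub1 had 0.29 (adjusted p = 0.119) and Bub1b had 0.07 (adjusted p = 0.729). Background would give 18.3% and 21.1% of the counts of Mad2l1 in the libraries labelled Chd4 shRNA.

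The largest rises were at the kinetochore. Cenpe (chr3:135212537-135273611), the kinesin that carries chromosomes along microtubules, had scaled counts of 72.8 and 72.4 in the libraries labelled Chd4 shRNA, against 35.9 and 28.4 in the scrambled libraries. Its log2 fold change was 1.17 ± 0.14 (SE), or 2.26-fold, with an adjusted p of 1.05e-06. Cenpf (chr1:189640606-189688086), a large protein of the outer kinetochore, had 136 and 151 in the libraries labelled Chd4 shRNA, against 72 and 55.1 in the scrambled libraries (1.17 ± 0.15, adjusted p = 1.59e-06). Both treated values of each gene were above both scrambled values and above the 4 values of the BRM014 and DMSO libraries, and both genes turned negative (-0.16 and -0.17) only where all filtered genes set the scale. Their levels per kb were 8.42 ± 0.0316 in the libraries labelled Chd4 shRNA, 3.73 ± 0.614 in the scrambled libraries for Cenpe, and 9.29 ± 0.676 in the libraries labelled Chd4 shRNA, 4.12 ± 0.774 in the scrambled libraries for Cenpf (SD, n = 2 each). Background would give at most 14.0% of the counts of either gene in the libraries labelled Chd4 shRNA. Cenpa (chr5:30666777-30674830), the histone H3 variant that marks the centromere, went the other way, with 126 and 119 in the libraries labelled Chd4 shRNA, against 158 and 171 in the scrambled libraries (-0.43 ± 0.14, adjusted p = 0.0151), and was positive on plain ERCC sums (0.17) and on the 6 abundant ERCC RNAs (0.027). The call on Cenpa was lost without BRM014 r2 (adjusted p = 0.0548), without the library labelled Chd4 shRNA r1 (0.0713) or r4 (0.127), and without scrambled r3 (0.103). It was also lost with background subtracted (-0.27, adjusted p = 0.125).

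Cenpc1, Ndc80 and Nuf2 of the kinetochore and the phosphatase gene Cdc25b were too close to background for the main test. Ndc80, whose protein grips microtubules, had raw counts of 148 and 158 in libraries labelled Chd4 shRNA, against 106 and 109 in the scrambled ones, which were deeper. In a fit of genes at least 3-fold above background, where the median expressed gene shifted by -0.39, Ndc80 had 0.63 ± 0.16 (SE, adjusted p = 0.00122). Its partner Nuf2, with 94 and 92 counts against 130 and 142, had -0.43 ± 0.17 (adjusted p = 0.038) on that shifted scale, and background would give 45.7% and 49.7% of its treated counts. Cenpc1, which builds the inner kinetochore, had 123 and 113 counts against 138 and 111, and Cdc25b had 112 and 94 against 94 and 86. Neither passed the test of that fit (0.045, adjusted p = 0.842, and 0.32, adjusted p = 0.115).

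Of the 8 genes for spindle motors and microtubule factors, 6 rose and 1 fell, against 19.4% and 20.5% of all tested genes. The rises turned negative where all filtered genes set the scale. Kif20b (chr19:34922361-34975745), a kinesin of late cytokinesis, had scaled counts of 58.6 and 63.4 in the libraries labelled Chd4 shRNA, against 33.3 and 25.8 in the scrambled libraries (1.05 ± 0.14, adjusted p = 5.95e-06). Kif4 (chrX:100625737-100727214), a kinesin on chromosome arms, had 26.1 and 27.1 in the libraries labelled Chd4 shRNA, against 17.7 and 14.6 in the scrambled libraries (0.72 ± 0.15, adjusted p = 0.00049). Kif11 (chr19:37376403-37421859), the motor that pushes spindle poles apart, had 49.8 and 49.1 in the libraries labelled Chd4 shRNA, against 33.5 and 28.9 in the scrambled libraries (0.66 ± 0.14, adjusted p = 0.000659). The treated libraries of these 3 genes were close together, and the scrambled r1 value was above the r3 value each time. Kif23 (chr9:61915905-61946774), the motor of centralspindlin, had 38 and 43.9 in the libraries labelled Chd4 shRNA, against 27.6 and 24.8 in the scrambled libraries (0.64 ± 0.15, adjusted p = 0.00122). Aspm (chr1:139454772-139494091), a spindle pole protein whose loss in humans gives a small brain, had 57.5 and 59.2 in the libraries labelled Chd4 shRNA, against 45.1 and 30.5 in the scrambled libraries (0.63 ± 0.16, adjusted p = 0.00261). Prc1 (chr7:80294450-80316259), which bundles the midzone microtubules, had 56 and 59 in the libraries labelled Chd4 shRNA, against 47.6 and 37.4 in the scrambled libraries (0.44 ± 0.16, adjusted p = 0.0294). The last 2 genes rest on scrambled r3: without it Aspm had 0.37 (adjusted p = 0.111) and Prc1 had 0.27 (adjusted p = 0.301), and without scrambled r1 Aspm had 0.96. Prc1 was also not called without the library labelled Chd4 shRNA r1 (adjusted p = 0.0818) or r4 (0.145). Kif20a, the kinesin that brings the passenger complex to the midzone, fell, with 43.3 and 45.3 in the libraries labelled Chd4 shRNA, against 64.5 and 62.3 in the scrambled libraries (-0.52 ± 0.14, adjusted p = 0.0049). It had 0.10 on plain ERCC sums and was not called without the library labelled Chd4 shRNA r1 (-0.46, adjusted p = 0.0744). Tpx2, the activator of Aurora A, had 0.38 (adjusted p = 0.0504).

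**Figure D2:**
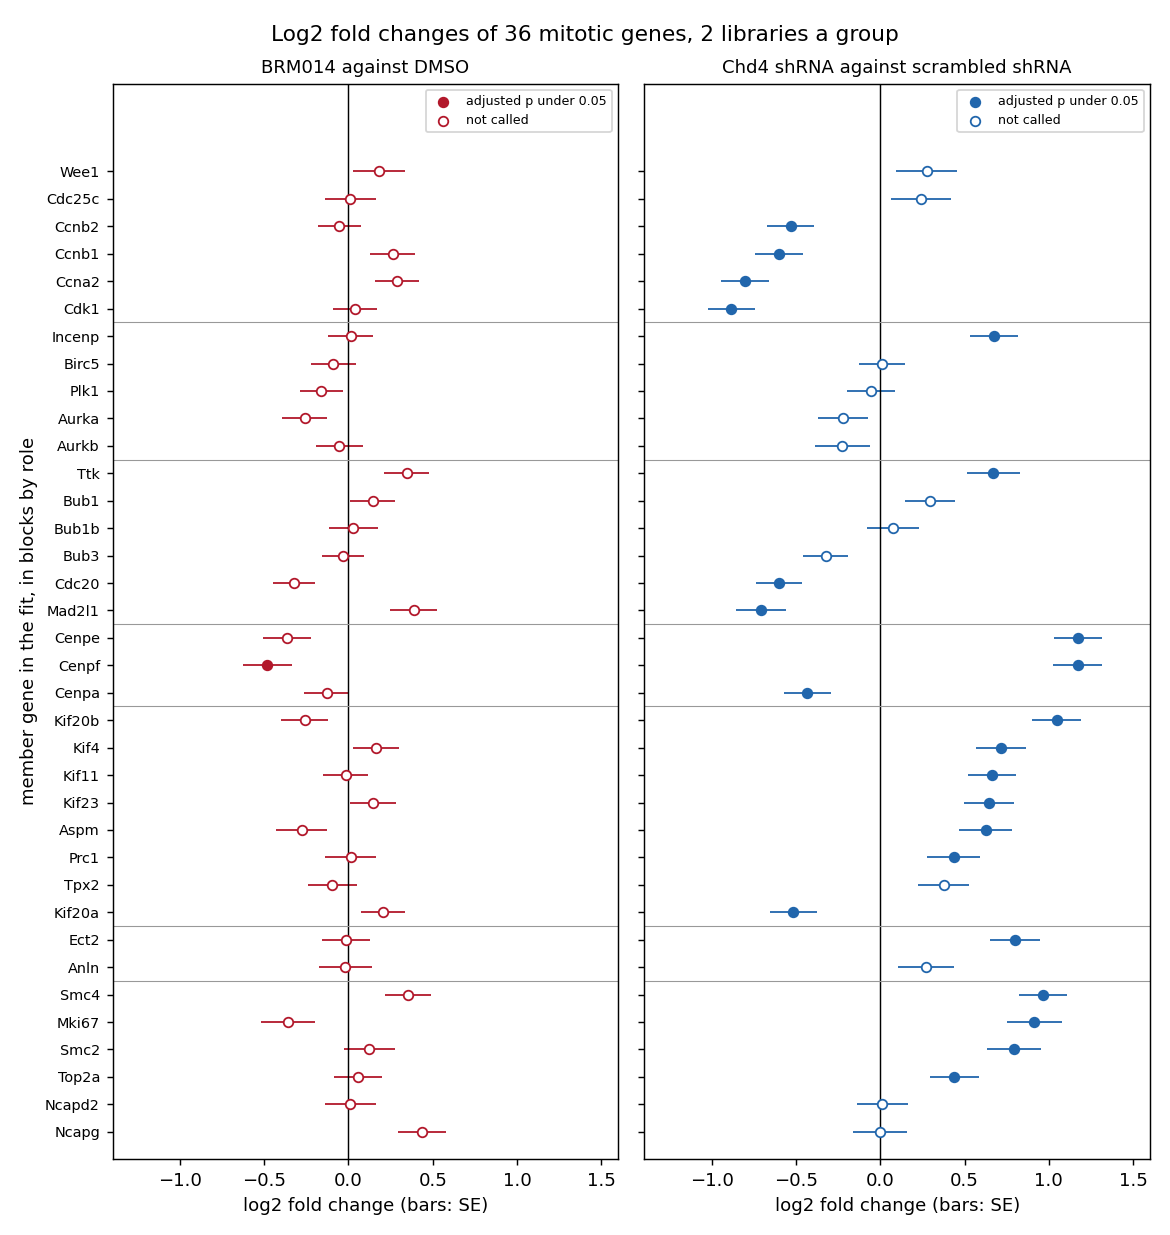
Log2 fold changes of the 36 tested members on the scale of expressed genes (points, bars are SE, 2 libraries a group), BRM014 against DMSO at left and Chd4 shRNA against scrambled at right, in blocks by role. Filled points passed the test: 1 at left, and 15 to the right and 8 to the left of 0 at right. Scaled by all filtered genes, every point at right would lie below 0, and by plain ERCC sums 33 of 36 would lie above it.

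Among genes of chromosome structure 4 of 6 rose and 0 fell, against 19.4% and 20.5% of all tested genes. Of cytokinesis 1 of 2 rose. The values of those that rose were again negative where all filtered genes set the scale. Mki67 (chr7:135689784-135716361), the Ki-67 protein that coats mitotic chromosomes, had scaled counts of 119.8 and 129 in the libraries labelled Chd4 shRNA, against 79.3 and 52.7 in the scrambled libraries (0.91 ± 0.16, adjusted p = 9.95e-05). Smc4 (chr3:69004738-69034623) and Smc2 encode the ATPase core of condensin. Smc4 had 78.4 and 85.1 in the libraries labelled Chd4 shRNA, against 45.1 and 38.5 in the scrambled libraries (0.97 ± 0.14, adjusted p = 1.29e-05). Smc2 (chr4:52439243-52488260) had 41.9 and 49.7 in the libraries labelled Chd4 shRNA, against 30.7 and 22.1 in the scrambled libraries (0.79 ± 0.16, adjusted p = 0.00044). The 2 core subunits thus moved the same way, while the condensin I subunits Ncapd2 (0.01, adjusted p = 0.958) and Ncapg (-0.0048, adjusted p = 0.984) did not pass the test. Top2a (chr11:98992943-99024189), the topoisomerase that untangles sister chromatids, had 164 and 188 in the libraries labelled Chd4 shRNA, against 140.0 and 119 in the scrambled libraries (0.44 ± 0.15, adjusted p = 0.0189). Its call was lost without the library labelled Chd4 shRNA r4 (0.34, adjusted p = 0.192) and without scrambled r3 (0.33, adjusted p = 0.191). Ect2 (chr3:27097222-27153878), the exchange factor that starts the cleavage furrow, had 53.8 and 61.8 in the libraries labelled Chd4 shRNA, against 37.8 and 28.6 in the scrambled libraries (0.80 ± 0.15, adjusted p = 0.000168). Anln, the scaffold anillin of the furrow, had 0.27 (adjusted p = 0.201). Summed scaled counts of the 6 chromosome genes were 591 ± 35.3 in the libraries labelled Chd4 shRNA and 426 ± 62.9 in the scrambled libraries (SD, n = 2 each).

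The scrambled libraries differed from each other along the same line. Scrambled r1 was above r3 for 15 of the 15 members that rose, with a median log2 difference of 0.33, and for 1 of the 8 that fell, with a median of -0.12. Over all expressed genes r1 was above r3 for 44.5%, with a median of -0.025. The 2 controls thus stood apart in the direction of the comparison, at a smaller size. Every treated value of these 23 members lay beyond both controls. The 23 were called on these same libraries, so that is no separate support, and groups did not overlap for 72.9% of all tested genes. In DMSO, r1 was below r2 for 15 of the 15, with a median of -0.21, and above it for 3 of the 8, with a median of -0.16. Over all expressed genes DMSO r1 was above r2 for 45.5%, with a median of -0.038, so the DMSO pair did not differ along the split. Without scrambled r3, 12 members rose and 7 fell, and without scrambled r1, 17 rose and 8 fell.

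Ratios of counts inside a library do not depend on its scale, and they show the split directly. The pairs were chosen after the values were seen, so they carry no test, and 2 libraries against 2 could not give an exact permutation p below 0.333. Cenpe had 1.03 and 0.991 counts for each count of Cdk1 in the libraries labelled Chd4 shRNA, against 0.290 and 0.202 in the scrambled libraries. The same ratio was 0.181 and 0.163 with BRM014, against 0.214 and 0.241 with DMSO. Cenpe thus drew level with Cdk1 in raw counts in the libraries labelled Chd4 shRNA alone. Cenpf over Ccnb1 was 1.94 and 2.10, against 0.680 and 0.505 in the scrambled libraries. Kif20b over Ccna2 was 0.995 and 1.09, against 0.346 and 0.240. Smc4 over Mad2l1 was 1.57 and 1.83, against 0.656 and 0.431. Kif11 over Cdc20 was 1.14 and 1.09, against 0.505 and 0.423. The mean ratio was between 2.40 and 4.12 times higher in the libraries labelled Chd4 shRNA over the 5 pairs, and no scrambled, DMSO or BRM014 library reached a treated value.

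**Figure D3:**
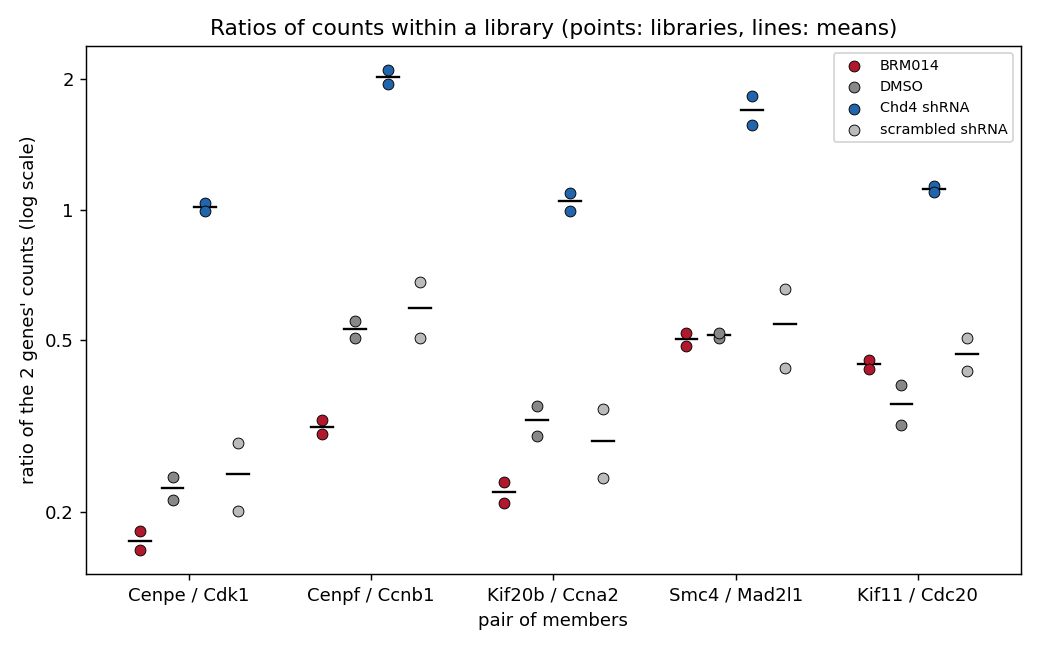
Ratios of the counts of pairs of members within each library (points, log scale, lines are means of 2 libraries), which no scaling changes. The libraries labelled Chd4 shRNA lie above all others for each of the 5 pairs, such as 1.03 and 0.991 against 0.290 and 0.202 in the scrambled libraries for Cenpe over Cdk1.

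The members that rose and those that fell differed in length and in level. The 8 that fell span 4.45 to 17.8 kb in the annotation, and the 15 that rose span 21.8 to 101.5 kb, so that the classes did not overlap in span. Levels averaged over the 8 libraries ran from 9.33 to 43.9 per kb for those that fell. For those that rose they ran from 3.27 to 14.9, so that the classes overlapped in part. Of the 12 tested members under 15 kb, 0 rose and 7 fell, with a median log2 fold change of -0.47. Of the 12 from 15 to 35 kb, 6 rose and 1 fell, with a median of 0.36. Of the 12 over 35 kb, 9 rose and 0 fell, with a median of 0.69. Long genes were called higher more often in the whole table too, but with far smaller medians. Of all expressed genes under 15 kb 15.0% rose and 21.9% fell, with a median of -0.068, and of those over 35 kb 38.2% rose and 11.8% fell, with a median of 0.26. Of those from 15 to 35 kb 19.2% rose and 21.8% fell, with a median of -0.00073. Across the 36 members Spearman's rho was 0.80 between span and log2 fold change, 0.51 for exon length and -0.67 for the level. These genes share libraries, and span, exon length and level go together, so the values are a description. Across the 8044 expressed genes with coordinates the same rho were 0.081, 0.064 and -0.27. With BRM014, rho for span was -0.054 among the members. After a correction of each library for span over all genes, the same 15 members were higher and the same 8 lower, though Kif4, the longest at 102 kb, moved to 0.41 (adjusted p = 0.0129). The part of span, of level, or of a process that depends on either, was not tested.

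**Figure D4:**
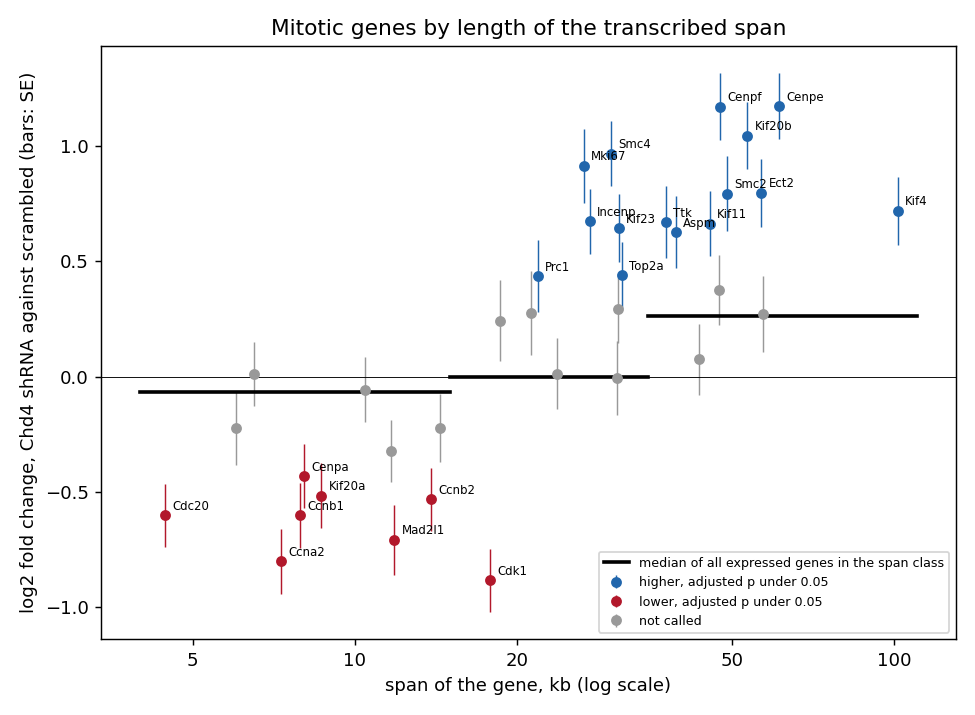
Log2 fold change of the 36 tested members, Chd4 shRNA against scrambled (points, bars are SE), on the scale of expressed genes, against the span of the gene in kb on a log axis. Thick black lines are the medians of all expressed genes under 15 kb (-0.068), from 15 to 35 kb (-0.00073) and over 35 kb (0.26). All 8 members that fell lie at or under 17.8 kb and all 15 that rose at or over 21.8 kb. By plain ERCC sums 5 of the 8 would lie above 0, and by all filtered genes the 15 would lie below it.

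With BRM014 the 1 member called was Cenpf. It had scaled counts of 38.9 and 34.4 with BRM014, against 48.6 and 53.6 with DMSO, a log2 fold change of -0.48 ± 0.15 (SE, adjusted p = 0.0417). Both BRM014 values were below both DMSO values. The call was lost under DESeq2 (adjusted p = 0.0681) and with no filter on low counts (0.199). It was also lost without BRM014 r1 (-0.57, adjusted p = 0.111) or r2 (-0.37, 0.47), without DMSO r2 (-0.41, 0.0688), and without the library labelled Chd4 shRNA r1 (-0.49, 0.0681) or r4 (-0.48, 0.0574). With the replicate number as a block it had -0.51 (adjusted p = 0.13), and with it 0 members were called.

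No gene of the CDK1 engine passed the test with BRM014. Cdk1 had scaled counts of 113 and 107 with BRM014, against 111 and 104 with DMSO (0.04 ± 0.13, adjusted p = 0.918). Ccnb1 had 119 and 114 with BRM014, against 87.8 and 106 with DMSO (0.26 ± 0.13, adjusted p = 0.264), and Ccnb2 had 74.4 and 78 with BRM014, against 76.6 and 81.8 with DMSO (-0.05 ± 0.13, adjusted p = 0.867). For Ccnb1 the groups were apart but close, and for Cdk1 and Ccnb2 they overlapped. Ccna2 had 109 and 105 with BRM014, against 80.4 and 95.5 with DMSO (0.29 ± 0.13, adjusted p = 0.207). Plk1 had 30.9 and 28.4 with BRM014, against 30.8 and 35.5 with DMSO (-0.16 ± 0.13, adjusted p = 0.514). Aurka had 33.6 and 31.4 with BRM014, against 34.9 and 42.7 with DMSO (-0.26 ± 0.13, adjusted p = 0.273). Of these 3 genes, Ccna2 and Aurka had groups that did not overlap, and neither passed the test. Aurkb had 30.1 and 26.5 with BRM014, against 26.9 and 31.7 with DMSO (-0.06 ± 0.14, adjusted p = 0.88). Cdc20 had 61.6 and 57.3 with BRM014, against 76.2 and 72.5 with DMSO (-0.32 ± 0.13, adjusted p = 0.123). Top2a had 123 and 114 with BRM014, against 102 and 125 with DMSO (0.06 ± 0.14, adjusted p = 0.881). Cdc20 was lower in both BRM014 libraries, while Aurkb and Top2a overlapped.

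Other members came near the threshold without passing it. Ncapg had 40.5 and 38.8 with BRM014, against 26.4 and 32.1 with DMSO (0.44 ± 0.14, adjusted p = 0.0644), Mad2l1 had 105 and 105 with BRM014, against 74.4 and 86.6 with DMSO (0.39 ± 0.14, adjusted p = 0.0939), and Smc4 had 54.6 and 51.1 with BRM014, against 37.6 and 45 with DMSO (0.35 ± 0.14, adjusted p = 0.118). Ttk had 24.6 and 25 with BRM014, against 17.4 and 21.6 with DMSO (0.35 ± 0.14, adjusted p = 0.127) and Cenpe had 20.5 and 17.5 with BRM014, against 23.7 and 25.1 with DMSO (-0.37 ± 0.14, adjusted p = 0.122). Ncapg, Mad2l1, Smc4 and Ttk were higher in both BRM014 libraries and Cenpe was lower in both. The values of Ncapg, Mad2l1, Smc4 and Ttk, like those of Ccnb1 and Ccna2, depended on DMSO r2. Without it, and so with a single DMSO library, the log2 fold changes were larger for Ccnb1 (0.41), Ccna2 (0.42), Mad2l1 (0.50), Ttk (0.51), Smc4 (0.49) and Ncapg (0.58). With all 8 libraries, the other tested members, from Mki67 (-0.36) and Aspm (-0.28) to Kif20a (0.20), lay between the members named above and did not pass. Scaled counts did not overlap for 8 members that were higher and 8 that were lower with BRM014, 44.4% against 48.5% of all tested genes. Ndc80, outside the main test, had raw counts of 246 and 358 with BRM014, against 216 and 278 with DMSO, with 0.49 ± 0.13 (SE, adjusted p = 0.0164) in the fit of genes at least 3-fold above background.

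The 2 effects differed for 16 of the 36 members (44.4%, against 30.8% of all tested genes) when the difference itself was tested. The comparisons share no library. For 5 members the BRM014 effect was above the Chd4 effect, against 15.4% of all tested genes, and for 11 it was below, against 15.4%. The 5 were Mad2l1 (1.10 ± 0.21, adjusted p = 0.000308), Ccna2 (1.09 ± 0.19, adjusted p = 0.000188), Cdk1 (0.92 ± 0.19, adjusted p = 0.000759), Ccnb1 (0.86 ± 0.19, adjusted p = 0.00158) and Kif20a (0.72 ± 0.19, adjusted p = 0.00604). The widest of the 11 were Cenpf (-1.65 ± 0.21, adjusted p = 2.82e-06), Cenpe (-1.54 ± 0.20, adjusted p = 4.62e-06), Kif20b (-1.31 ± 0.20, adjusted p = 3.78e-05) and Mki67 (-1.27 ± 0.23, adjusted p = 0.000188). Cenpf was the one member called in both comparisons, lower with BRM014 and higher in the libraries labelled Chd4 shRNA on the scale of expressed genes. In all 13 settings on that scale that gave a difference, 4 of the 5 and 6 of the 11 stayed called.

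The wider mitotic machinery, 131 further genes of which 108 were tested, is given beside the members with no test between the lists. In the libraries labelled Chd4 shRNA 19 rose (17.6%) and 25 fell (23.1%), near the background of 19.4% and 20.5%, with a median of -0.041. Among regulators of mitotic transcription Foxm1 rose (0.49, adjusted p = 0.0223), and E2f5 (-1.25), Mybl2 (-1.03), which encodes B-MYB, and E2f4 (-0.59) fell, 1 higher and 4 lower of 9. Of 17 genes of the anaphase-promoting complex 3 rose (Anapc13 0.84, Anapc1 0.72, Anapc7 0.56) and 4 fell, among them its inhibitor Fbxo5 (-1.02), Anapc10 (-0.58) and Anapc11 (-0.41). Of 30 other kinetochore genes 4 rose, with Knl1 (0.99) and Cenpx (0.62), and 7 fell, with Mis18a (-0.77), Oip5 (-0.64) and Spc25 (-0.58). Of 23 other kinase and entry genes 3 rose (Nek9 0.68, Arpp19 0.52, Plk4 0.45) and 5 fell, with Cdca3 (-0.80), Ccnf (-0.66) and Cdca5 (-0.51). Of 26 other spindle genes 7 rose, with the pericentriolar scaffold Pcnt (1.16), Numa1 (0.98) and Ckap5 (0.88), and 4 fell, with Psrc1 (-0.52), Nusap1 (-0.44) and Haus7 (-0.40). Of 3 other condensin genes Ncapd3 (0.50) rose and Ncaph2 (-0.59) fell. All of these are on the scale of expressed genes and were not checked on the others.

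With BRM014, 4 of the 108 rose (3.7%) and 3 fell (2.78%), near the background of 3.12% and 4.63%. The cohesin protector Sgo1 (0.63, adjusted p = 0.00478), Haus3 (0.67, adjusted p = 0.00326), the centriole kinase Plk4 (0.52, adjusted p = 0.012) and Cenpk (0.42, adjusted p = 0.0457) rose. Knl1 (-0.56, adjusted p = 0.0162), the kinetochore platform for BUB proteins, Pcnt (-0.50, adjusted p = 0.032) and Kif22 (-0.45, adjusted p = 0.0225) fell. Knl1 and Pcnt thus had the pattern of Cenpf, lower with BRM014 and higher in the libraries labelled Chd4 shRNA. Genes of G1/S and DNA replication, set beside the list, were 1 higher and 16 lower of 23 tested in the libraries labelled Chd4 shRNA, with a median of -0.64, against 19.4% and 20.5% of all tested genes. These values too are on the scale of expressed genes and were not checked on the others. With BRM014 0 of them were called by edgeR in either direction, with 3 higher and 0 lower at an unadjusted p under 0.05.

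Some members overlap another gene, and which strand was counted is not stated although the library kit keeps strand. Kif20a overlaps Cdc23 on the other strand, with mean counts over the 8 libraries of 640 and 575, and Kif4 overlaps Pdzd11, with 193 and 310. Ncapg overlaps Lcorl (396 and 216), Prc1 overlaps Rccd1 (473 and 225) and Ccna2 overlaps Exosc9 (1088 and 328.5), each on the other strand. The counts of these members could hold reads of the neighbour.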

How the data were processed

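The authors deposited raw read counts per gene for 8 nascent RNA libraries, and a separate table of counts of 92 ERCC spike-in RNAs. The tools named, per the submitters' processing notes, are Trim Galore (0.6.4) for trimming, the aligner STAR (2.7.1a), the counter featureCounts and edgeR (3.32.1). The build is mm10. The strand counted and the treatment of reads with several alignments are not given in the sources used here. Deposited exon lengths per gene were used for levels and background.

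Groups came from the sample labels. For 2 columns, Chd4 shRNA r4 and scrambled r3, no sample title carries the number, so only the group in the column name was used. Members and lists were chosen with earlier results of these data known, so no count over them is independent support. One edgeR 4.0.16 model held all 8 libraries (R 4.3.3, quasi-likelihood F test, group as the one factor) on genes with a mean count at least 10-fold above background, with TMM scaling, and p-values adjusted over all 8272 genes by Benjamini-Hochberg. Background was the count per kb over 5330.3 kb of exon of 1434 receptor genes. SEs came from the F statistic. Values in every library are given for members called and for 8 fixed ones, and of other mitotic genes up to 3 with the smallest p per list, direction and comparison, less a gene that is not reported here.

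The alternatives were DESeq2 1.42.0, ERCC scalings, TMM over the 35426 genes past the default filter, cutoffs of 3-fold and 30-fold, no filter, background subtracted, own 4 libraries, a replicate block and each library left out. TMM over the 6 abundant ERCC RNAs, the default filter as well, a correction for gene span and a crossed block were added after seeing the data. Fits were tested on simulated data. Figures used matplotlib 3.10.9. SEs of tested members ran from 0.125 to 0.182 (log2) in the 2 main comparisons.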

Additional observations from a re-analysis of the deposited data

Results flagged for a closer look

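The following members are given because the test of the difference between both effects passed, the BRM014 effect minus the Chd4 effect on the log2 scale, with edgeR. Below 0 were Cenpf (-1.65), Cenpe (-1.54), Kif20b (-1.31), Mki67 (-1.27), Aspm (-0.904), Ect2 (-0.814) and Kif11 (-0.681). Smc2 (-0.67), Incenp (-0.66), Smc4 (-0.615) and Kif4 (-0.556) were also below 0. Above 0 were Mad2l1 (1.1), Ccna2 (1.09), Cdk1 (0.924), Ccnb1 (0.864) and Kif20a (0.72). For Mad2l1, Ccna2, Ccnb1 and Kif20a both BRM014 libraries were above both DMSO libraries while both libraries labelled Chd4 shRNA were below both scrambled ones. For Cenpf, Cenpe, Kif20b, Aspm and Mki67 the reverse held, with BRM014 below DMSO and the libraries labelled Chd4 shRNA above the scrambled. These members had passed the test of the difference first, and the share of all tested genes with such opposite patterns was not counted. Taken singly, the groups did not overlap for 48.5% of all tested genes with BRM014 and 72.9% in the Chd4 comparison.

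Several of these calls were lost under other settings. With DESeq2, Kif4 (-0.57, adjusted p = 0.112) and Smc2 (-0.69, 0.0513) were not called, and with background subtracted Kif4 (-0.48, 0.105) was not. Without scrambled r3, Incenp (-0.55, adjusted p = 0.0766), Kif11 (-0.59, 0.0606), Kif4 (-0.44, 0.179), Smc2 (-0.46, 0.169) and Smc4 (-0.51, 0.102) were not called. Without BRM014 r2 the same 5 were not called, with adjusted p between 0.0689 and 0.146. Without the library labelled Chd4 shRNA r4, Smc2 (adjusted p = 0.129), Smc4 (0.0874) and Kif4 (0.11) were not called, and without r1, Kif20a (0.0545) and Kif4 (0.0757) were not. Kif4 was also not called without BRM014 r1 (adjusted p = 0.0904) or DMSO r2 (0.0764), and had -0.27 (0.222) after the correction for span.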

How the results depend on the processing

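The scale of expressed genes was kept by 14 settings: DESeq2, no filter, background subtracted, own 4 libraries, the default filter as well, the span correction, and each of the 8 libraries left out. Of the members called in the Chd4 comparison, 12 of 15 higher and 5 of 8 lower stayed called in all 14, with 0 changes of sign. Members lower with BRM014, 1 in the main test, were 0 with DESeq2, no filter, ERCC TMM sizes, plain ERCC sums, the 6 abundant ERCC RNAs, all filtered genes, either other cutoff and the replicate block, and 2 with the span correction. Members higher with BRM014 were 1 with TMM over all filtered genes and 2 with the 3-fold cutoff. The cause of these moves was not tested.

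ERCC TMM sizes left 0 members higher and 0 lower in the Chd4 comparison (median 0.49) and 0 and 0 for the difference. With plain ERCC sums 0 members were lower in the Chd4 comparison (median 0.92) and 0 were higher for the difference (median -0.82). The 6 abundant ERCC RNAs gave 0 lower (median 0.77), and for the difference 0 higher and 4 lower (median -0.66). TMM over all filtered genes gave 0 higher and 36 lower (median -1.06), and for the difference 34 and 0 (median 1.20). The 3-fold cutoff gave 8 and 16 (median -0.11), and for the difference 12 and 4 (median 0.22). The 30-fold cutoff, with 18 members in the fit, gave 3 higher (median -0.084), and for the difference 1 lower (median 0.034). At 30-fold the median expressed gene had -0.025 and, for the difference, 0.0016. Of the members called in the main Chd4 comparison, 2 of the higher and 7 of the lower were called in this smaller set too. Those 2, Top2a and Smc4, were the only members that rose to reach this cutoff. The others that rose lay between the 10-fold and 30-fold cutoffs and were not in this fit, while all that fell were in it. The cause of the other moves was not tested.

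Over all tested genes, BRM014 had 0 higher and 0 lower with ERCC TMM sizes, 11 and 93 with plain ERCC sums, 8 and 62 with the 6 ERCC RNAs, 96 and 201 with DESeq2, 503 and 763 at 3-fold and 52 and 205 at 30-fold. It had 416 higher with all filtered genes and 103 higher with no filter. The Chd4 comparison had 57 and 6 with ERCC TMM sizes, 2836 and 62 with plain ERCC sums, 59 lower with the 6 ERCC RNAs, 11493 and 11134 with all filtered genes, 3931 and 4019 at 3-fold, 891 and 828 at 30-fold, and 31704 higher with no filter. The difference had 1 and 23 with ERCC TMM sizes, 22 higher with plain ERCC sums, 12 and 446 with the 6 ERCC RNAs, 9721 and 6569 with all filtered genes, 3378 and 3203 at 3-fold, 634 and 750 at 30-fold, and 22493 lower with no filter.

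Signs turned as follows. In the Chd4 comparison with plain ERCC sums, Ccnb1 had 0.016, Ccnb2 0.082, Cdc20 0.013, Cenpa 0.17 and Kif20a 0.10, and with the 6 ERCC RNAs Cenpa had 0.027. With TMM over all filtered genes Incenp had -0.66, Ttk -0.67, Cenpe -0.16, Cenpf -0.17, Kif11 -0.67, Kif20b -0.29, Kif23 -0.69, Kif4 -0.62, Aspm -0.71, Prc1 -0.90, Ect2 -0.54, Top2a -0.90, Mki67 -0.42, Smc2 -0.54 and Smc4 -0.37. For the difference on that scale Incenp had 0.74, Kif11 0.72, Kif20b 0.089, Kif4 0.84, Aspm 0.49, Ect2 0.58, Mki67 0.13, Smc2 0.73 and Smc4 0.78.

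Leaving out each library in turn gave 0 to 6 members higher and 0 to 1 lower with BRM014 (median -0.11 to 0.16), and over all tested genes 85 to 738 higher and 141 to 653 lower. In the Chd4 comparison it gave 12 to 17 and 5 to 9 (median 0.12 to 0.42), and 1048 to 1906 and 1048 to 1940 tested genes. For the difference it gave 4 to 7 and 6 to 15 (median -0.38 to -0.055), and 727 to 1560 and 886 to 1509 tested genes. With the replicate number as a block for BRM014 and DMSO, 0 members were higher and 0 lower, and 94 tested genes higher and 297 lower. The labels do not say whether equal numbers mark a pair. Deviations of r1 libraries correlated at -0.223, which with 2 libraries a group cannot settle it. A crossed block (BRM014 r1 with DMSO r2) gave 4 members higher and 4 lower, and 506 tested genes higher and 767 lower. A negative correlation of equal numbers favours the crossed pairing, so these larger counts are no separate support. No paired analysis was possible because the columns of the Chd4 shRNA and scrambled libraries share a single number. Depth limits the 4 members near background most, which were not in the main test.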
